A study of Mus musculus with 11 samples.

Results

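The comparison described here set Xap5 KO against Nono KO in NIH/3T3, an immortalised line of mouse embryonic fibroblasts, over all expressed genes. It took in the 3 Xap5 KO and 3 Nono KO libraries, 6 of the 11 in the series, and wild type entered no contrast. All 11 libraries (2 wild type, 3 Xap5 KO, 3 Nono KO and 3 Sox5 KO) came from total RNA of cells sown sparsely, grown for 24 h in medium with calf serum and then held in DMEM without serum for 24 h, a treatment that lets cells leave the cycle and build a primary cilium. The stated purpose was to find the genes under a pathway of these 3 factors during ciliogenesis. Both groups were therefore serum starved, and they differed in the gene that was knocked out. The labels give 1 genotype name per group, with neither a clone nor a guide nor an independent knockout line, so genotype cannot be told apart from the history of the cell line that carries it. They do not say whether replicates were separate cultures, and p-values measure only the spread between these libraries, which may be technical.

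Xap5, listed in the table under the symbol Fam50a, is a nuclear protein that has been found in the catalytic spliceosome, the machine that removes introns from RNA. Nono belongs to the DBHS family of RNA- and DNA-binding proteins with Sfpq and Pspc1; these proteins pair with one another, build nuclear bodies called paraspeckles and take part in transcription, splicing and DNA repair. The primary cilium is a single non-motile antenna that fibroblasts raise when they rest, and it carries receptors of the Hedgehog and PDGF pathways. Setting the knockouts against each other asks where loss of one factor left a different transcriptome from loss of the other.

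The Xap5 KO libraries held 37153144 to 39905996 estimated counts and the Nono KO libraries 38050571 to 43498383. A tested gene had a median count of 1002 per library, and the biological coefficient of variation was 10.6%. Euclidean distances between libraries on log2 CPM (counts scaled to library size) were 68.2 to 71.8 within a group and 120.7 to 123.6 between the groups, with no library apart from its group. No pair of libraries agreed within sampling noise, since chi-square per degree of freedom was 14.4 to 30.8 between libraries of 1 group. Mitochondrially encoded genes took 7.89% to 10.3% of counts in Xap5 KO and 7.11% to 7.98% in Nono KO, so the groups overlapped. The summed level of the 14 fibroblast markers was 19870 to 21130 CPM in Xap5 KO, 49600 to 54490 in Nono KO and 25250 to 25300 in wild type. Most of each sum came from the matrix genes Col1a1, Col1a2, Col3a1 and Fn1, which are described below. Of the 13 epithelial markers 6 were at or under 3 counts in all 6 libraries, and their sum was 0.154 to 0.386 CPM against 0.469 to 0.856. The sum for endothelial genes was 48.4 to 52.4 CPM in Xap5 KO and 22.6 to 31.1 in Nono KO, but Vwf alone gave 33.3 to 35.4 and 1.55 to 2.34 of these. Without Vwf the endothelial sum was 14.6 to 17.04 CPM in Xap5 KO and 21.1 to 29.04 in Nono KO. With Vwf counted, 5 members were tested: 3 were lower, 1 was higher, which is Vwf itself, and 1 was not called. The median of these 5 was -1.74, and -0.50 without Nono KO replicate 2. The sums were, for leukocyte genes, 9.81 to 11.7 and 12.7 to 18.1 CPM and, for neuronal genes, 10.2 to 10.99 and 27.2 to 29.03. Adipocyte genes summed to 179 to 207 and 234 to 268 CPM, almost wholly from lipoprotein lipase (Lpl). In bulk RNA fewer cells of a type and less RNA per cell cannot be told apart, and the part these markers play in the results was not tested.

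Each targeted gene was low in its own knockout. Counts of Fam50a came to 7.49, 7.91 and 7.86 CPM in the 3 Xap5 KO libraries, against 47.2, 49.3 and 46.3 CPM in the 3 of Nono KO and 64.8 and 62.9 CPM in wild type. Nono stood at 33.95, 34.00 and 27.6 CPM in Nono KO against 448, 447 and 415 CPM in Xap5 KO and 357 and 351 CPM in wild type. Neither gene's groups overlapped: the log2 fold change of Xap5 KO over Nono KO was -2.62 (SE 0.0823) for Fam50a and 3.78 (SE 0.0763) for Nono, with adjusted p = 6.01e-16 and 5.54e-19 (edgeR quasi-likelihood test, Benjamini-Hochberg). Transcript of each targeted gene was still counted in its knockout. The third target, the SRY-related transcription factor Sox5, was low in all 3 knockouts. Wild type had 49.7 and 45.9 CPM of it, Xap5 KO 14.2, 15.02 and 11.9 CPM, Nono KO 7.01, 7.57 and 8.75 CPM and Sox5 KO 12.6, 13.9 and 13.9 CPM. Between the knockouts compared here Sox5 was higher in Xap5 KO by 0.82 (SE 0.118) on the log2 scale (edgeR adjusted p = 5.17e-06); exons of the antisense gene Sox5os1 overlap it, and strand handling in the counting is not given in the sources used here.

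Both DBHS relatives of Nono were higher where Nono was low. Pspc1 reached 51.6, 50.8 and 54.5 CPM in Nono KO against 22.5, 16.4 and 17.8 CPM in Xap5 KO, where wild type had 20.4 and 22.1 CPM. No Xap5 KO library reached the lowest Nono KO library, and the log2 fold change was -1.47 (SE 0.106) (edgeR adjusted p = 2.56e-10). Sfpq had 386, 400.2 and 387 CPM in Nono KO against 323, 317 and 305 CPM in Xap5 KO, again with no overlap and a smaller log2 fold change of -0.31 (SE 0.0477); both wild-type libraries lay between, at 366 CPM. Exons of Gm12940 overlap Sfpq on the same strand, so its counts may include reads of that gene.

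**Figure D1:**
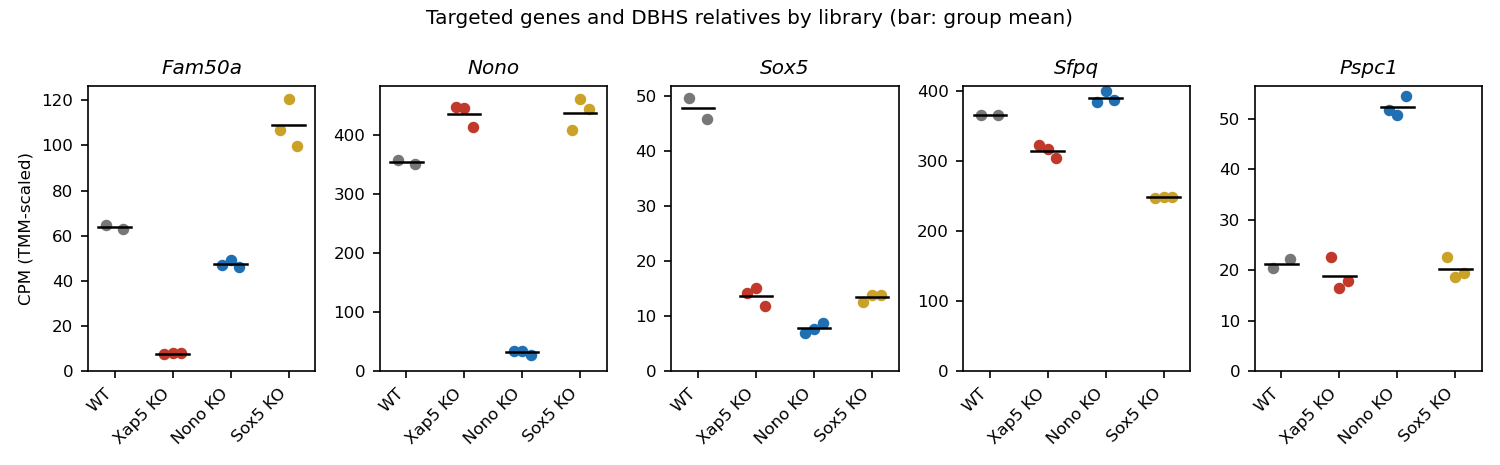
TMM-scaled CPM (y axis, starting at 0) of the targeted genes Fam50a, Nono and Sox5 and of the Nono relatives Sfpq and Pspc1 in each of the 11 libraries (points), with the mean of each group (bar), by genotype (x axis). Fam50a is lowest in Xap5 KO and Nono in Nono KO, Sox5 is low in all 3 knockouts, and Pspc1 reaches 54.5 CPM in Nono KO.

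The knockouts differed over much of the transcriptome. Of 13332 genes tested, 7071 (53%) were called, meaning a Benjamini-Hochberg adjusted p under 0.05 in edgeR's quasi-likelihood test; 3613 (27.1%) were higher in Xap5 KO and 3458 (25.9%) were lower. Most differences were small: the median size among called genes was 0.50 on the log2 scale, and 1474 genes (11.1%) differed at least 2-fold, 699 (5.24%) higher and 775 (5.81%) lower in Xap5 KO. A core of 660 called genes differed at least 4-fold and 436 at least 8-fold. The 6 libraries did not overlap for 7716 genes (57.9%). The genes named below as largest changes or list members, unless marked otherwise, were taken only from called genes without overlap. Their calls and lack of overlap were therefore set by that choice. The median log2 fold change of all tested genes was 0.01, against which the medians of gene lists are read below. Counts called in a list are read against the 53% called, 27.1% higher and 25.9% lower among all genes. Scaling by library totals alone moved that median to 0.12 and the share of calls that were higher in Xap5 KO from 51.1% to 64.3%, so list medians near 0 depend on the scaling. Under it some list medians turned from below 0 to above it. They were those for intraflagellar transport, ciliary transcription factors, circadian clock, cell-cycle regulators with p53 targets, BMP and TGF-beta, imprinted, chemokine and immediate-early genes.

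**Figure D2:**
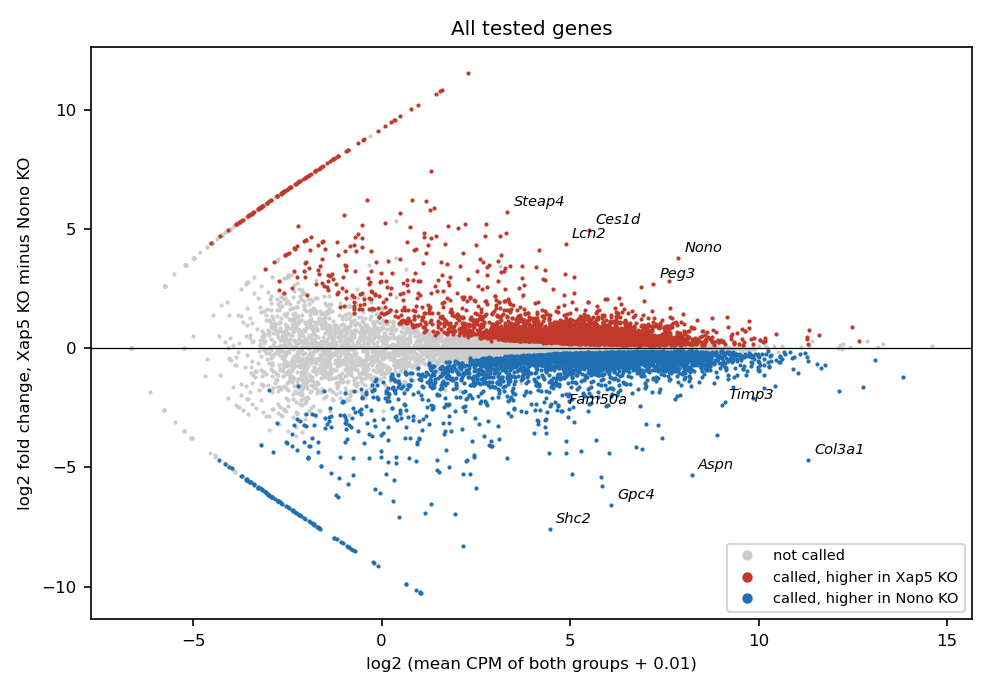
Each point is 1 of the 13332 tested genes: the log2 of its mean CPM over both groups plus 0.01 (x axis) against its log2 fold change, Xap5 KO minus Nono KO (y axis). Red and blue points are the 3613 and 3458 genes called higher in Xap5 KO and in Nono KO; the slanting outer lines are genes with no count in 1 group, whose fitted value is no bound.

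The genes that were most strongly lower in Xap5 KO included Shc2, Gpc4, Nid2 and Crabp1. Shc2, an adaptor of receptor tyrosine kinases, stood at 0.309, 0.316 and 0.0515 CPM in Xap5 KO and 44.4, 43.4 and 44.1 CPM in Nono KO, where wild type had 66.3 and 65.4 CPM. The heparan sulfate proteoglycan Gpc4 stood at 1.21, 1.17 and 1.83 CPM against 128, 127 and 147 CPM. Both were present in wild type, Gpc4 at 34.96 and 32.4 CPM. The log2 fold changes were -7.58 (SE 0.192) and -6.58 (SE 0.189) (edgeR adjusted p = 1.67e-16 and 4.34e-12). The basement membrane protein nidogen 2 (Nid2) was at 2.06, 1.899 and 2.19 CPM in Xap5 KO and 100.4, 97.1 and 141 CPM in Nono KO. Crabp1, which binds retinoic acid in the cytoplasm, was at 6.67, 4.55 and 6.41 CPM and 128, 139 and 107 CPM, and was listed at 0 in all 3 Sox5 KO libraries. Vipr1, a receptor for vasoactive intestinal peptide, Fgd4, an exchange factor for Cdc42, Trhde, an ectoenzyme that degrades thyrotropin-releasing hormone, Igsf10 and Fam83h followed with log2 fold changes of -5.88, -4.61, -4.57, -5.26 and -4.49. Exons of another gene overlap those of 38 of the 144 genes chosen for naming, in 30 on the opposite strand. Sfpq, Shc2, Irag1, Nid2, Igsf10, Trhde, Aspn, Col3a1, Timp3, Fn1, Kif4, Sf3b3, Prpf31, Mbnl2, Ccnd1, Ccnd2, Gas1, Plod2, Ndrg1, G6pdx, Il1a, Parp14, Hoxc5, Usp2 and Cfap100 are among them, and their counts are uncertain by whatever reads the counting gave to the other gene.

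Genes most strongly higher in Xap5 KO included Lcn2, Nos2, Steap4 and Ces1d. Lcn2, the iron-siderophore binding protein lipocalin 2, stood at 53.6, 68.1 and 47.6 CPM in Xap5 KO and 2.86, 2.48 and 2.98 CPM in Nono KO, with 4.49 and 4.49 CPM in wild type. The inducible nitric oxide synthase Nos2 stood at 13.9, 14.8 and 10.1 CPM against 0.419, 0.706 and 0.331 CPM. Both were low in Nono KO and wild type alike, and the log2 fold changes were 4.35 (SE 0.145) and 4.72 (SE 0.338) (edgeR adjusted p = 1.32e-15 and 3.09e-10). The metalloreductase Steap4 was at 15.9, 18.1 and 25.3 CPM in Xap5 KO and 0.543, 0.0974 and 0.497 CPM in Nono KO, a log2 fold change of 5.71 (SE 0.523). The carboxylesterase Ces1d was at 71.8, 83.6 and 108 CPM and 4.15, 1.83 and 2.54 CPM, and higher still in Sox5 KO, at 262, 240.0 and 244 CPM. Ces1d was next to absent from wild type (0.0496 and 0.227 CPM). Cdh19, a cadherin, Nlrp4e, Mc3r, a melanocortin receptor, Vwf, the clotting protein von Willebrand factor, Klhl30 and Irag1 were higher by 4.82, 4.69, 4.34, 4.11, 3.92 and 3.73 on the log2 scale. Gm49378 also met the rule for naming, but its Xap5 KO libraries stood at 23.96, 14.97 and 0.799 CPM, and its call was lost in a fit of the 6 libraries alone (edgeR adjusted p = 0.0583) and on leaving out Xap5 KO replicate 1 (0.0512), Nono KO replicate 2 (0.0657) or Nono KO replicate 3 (0.0657). Its exons overlap Ipo4 and Tm9sf1.

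Some genes were detected in 1 of the knockouts alone at this depth. At or under 3 counts in every Xap5 KO library and at 1 CPM or more on average in Nono KO were 23 genes, all 23 called. The opposite pattern held in 23 genes, of which 21 were called. Genes were picked here for being low in 1 group and higher in the other. Calls among them therefore follow from the choice and are no result, where 53% of all genes were called. Kcnj2, an inward rectifier potassium channel, stood at 10.7, 8.79 and 7.401 CPM in Nono KO, at least 118-fold higher than 3 counts per Xap5 KO library would give. Podn, the small leucine-rich proteoglycan podocan, was at 4.44, 4.82 and 2.98 CPM, at least 53.8-fold higher in Nono KO. Pde2a, a phosphodiesterase of cyclic nucleotides, was at 13.8, 10.9 and 4.82 CPM in Xap5 KO, at least 128-fold higher there than the same limit in Nono KO; its call was lost with a replicate block (edgeR adjusted p = 0.145) and on leaving out any 1 of the 6 libraries (0.0648 to 0.0896). For Lbp, which binds bacterial lipopolysaccharide, the bound was at least 36.5-fold higher expression on the Xap5 KO side. These 4 genes were chosen after their values were seen.

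More collagens were lower than higher in Xap5 KO. Of 35 tested collagens 20 were lower, 3 were higher and 12 were not called, with a median log2 fold change of -0.75, where 25.9% of all genes were lower and the overall median was 0.01. Col3a1, which forms the fine fibrils of type III collagen, stood at 181, 178 and 209 CPM in Xap5 KO and 4688, 4554 and 5469 CPM in Nono KO. Wild type held 403 and 355 CPM of Col3a1, closer to Xap5 KO, and the log2 fold change was -4.70 (SE 0.0962) (edgeR adjusted p = 4.99e-16). Col5a3, a chain of type V collagen that nucleates fibrils, stood at 2.73, 1.83 and 3.32 CPM against 110.0, 113 and 109 CPM, with 21.4 and 21.1 CPM in wild type. Col12a1, a fibril-associated collagen, was at 66.7, 65.8 and 80.2 CPM against 848, 878 and 948 CPM, and Col6a2, of the beaded filaments, at 377, 344 and 324 CPM against 1433, 1554 and 1521 CPM. By the rule for naming, none of these collagens had a Xap5 KO library within the Nono KO range, where 57.9% of all tested genes did not overlap. The chains of type I collagen, Col1a1 and Col1a2, chosen after their values were seen, had means of 1988 and 3379 CPM in Xap5 KO and 6973 and 10528 CPM in Nono KO, log2 fold changes of -1.81 and -1.64.

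Matricellular, proteoglycan and elastic fibre genes followed the collagens in direction. Of 59 tested, 32 were lower in Xap5 KO and 13 higher, with a median of -0.44, and 19 were lower at least 2-fold. Small leucine-rich proteoglycans, which coat collagen fibrils, were among the larger differences. Asporin (Aspn) stood at 16.6, 14.4 and 12.6 CPM in Xap5 KO and 549, 528 and 676 CPM in Nono KO against 5.19 and 5.79 CPM in wild type. Lumican (Lum) stood at 10.99, 12.2 and 11.5 CPM against 196, 195 and 216 CPM, and osteoglycin (Ogn) at 16.6, 12.6 and 7.34 CPM against 204, 199 and 284 CPM. The 3 proteoglycans differed by -5.33, -4.13 and -4.23 on the log2 scale (edgeR adjusted p = 2.43e-10, 2.7e-18 and 9.25e-06). Decorin (Dcn), of the same family, was at 537, 524 and 545 CPM against 1668, 1761 and 1727 CPM, a log2 fold change of -1.68 (SE 0.0578). Fibronectin (Fn1), which cells assemble into the first matrix fibrils, was at 8947, 8404 and 9331 CPM and 19888, 21224 and 20404 CPM and lay between these in wild type, at 13898 and 14023 CPM. Lysyl oxidase (Lox), which cross-links collagen and elastin and was looked up after values were seen, was not called, at a mean of 4692 CPM against 4847 CPM with a log2 fold change of -0.05 (SE 0.0660) (edgeR adjusted p = 0.578); with chromosome medians taken off it was called lower, at -0.19 (0.0203).

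Genes that cut or protect the matrix were mostly lower in Xap5 KO too. Of 36 tested proteases and inhibitors 20 were lower and 7 higher, with a median of -0.41. Without Xap5 KO replicate 3 the count of higher members was 3, and without Nono KO replicate 3 it was 4. Timp3, an inhibitor that binds to the matrix, stood at 170.2, 162 and 172 CPM against 864, 906 and 892 CPM, and the gelatinase Mmp9 at 7.41, 7.06 and 6.47 CPM against 33.98, 39.9 and 37.9 CPM. Adamts14, a procollagen peptidase, was at 12.4, 11.6 and 13.6 CPM against 57.8, 53.1 and 51.8 CPM. In these 3 genes Xap5 KO lay below both Nono KO and wild type, where Timp3 was at 479.9 and 486 CPM, Mmp9 at 39.9 and 45.5 CPM and Adamts14 at 73.7 and 72.96 CPM. Stromelysin 1 (Mmp3) went the other way, at 95.99, 99.4 and 99.6 CPM in Xap5 KO and 24.1, 22.3 and 23.6 CPM in Nono KO, a log2 fold change of 2.08 (SE 0.0709), and was listed at 0 in both wild-type libraries.

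Contractile genes of smooth muscle and myofibroblasts had the highest share called of the pathway lists, 92.9% against 53% of all genes. Of 28 tested, 21 were lower in Xap5 KO and 5 higher, where 25.9% of all genes were lower and 27.1% higher. The median was -0.50. Itga11, the integrin through which fibroblasts hold fibrillar collagen, stood at 7.21, 6.43 and 8.604 CPM against 42.6, 49.9 and 47.1 CPM, a log2 fold change of -2.65 (SE 0.106). Csrp2, a LIM protein of the contractile apparatus, stood at 9.42, 6.89 and 8.42 CPM against 41.5, 46.8 and 41.9 CPM and at 47.9 and 45.98 CPM in wild type. Smooth muscle gamma actin (Actg2) stood at 5.92, 9.49 and 9.402 CPM against 39.6, 42.4 and 37.9 CPM and the actin-bundling protein Synpo2 at 0.746, 0.852 and 0.902 CPM against 6.54, 6.02 and 5.496 CPM. Wild type held 0.372 and 0.2496 CPM of Actg2, below both knockouts. The widely used myofibroblast gene Acta2 differed less, with means of 1635 and 2168 CPM and a log2 fold change of -0.41 (SE 0.0814); it was chosen after its values were seen. Of the 14 fibroblast markers, several of which are matrix genes already described, 10 were lower in Xap5 KO and 2 higher, with a median of -0.66.

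**Figure D3:**
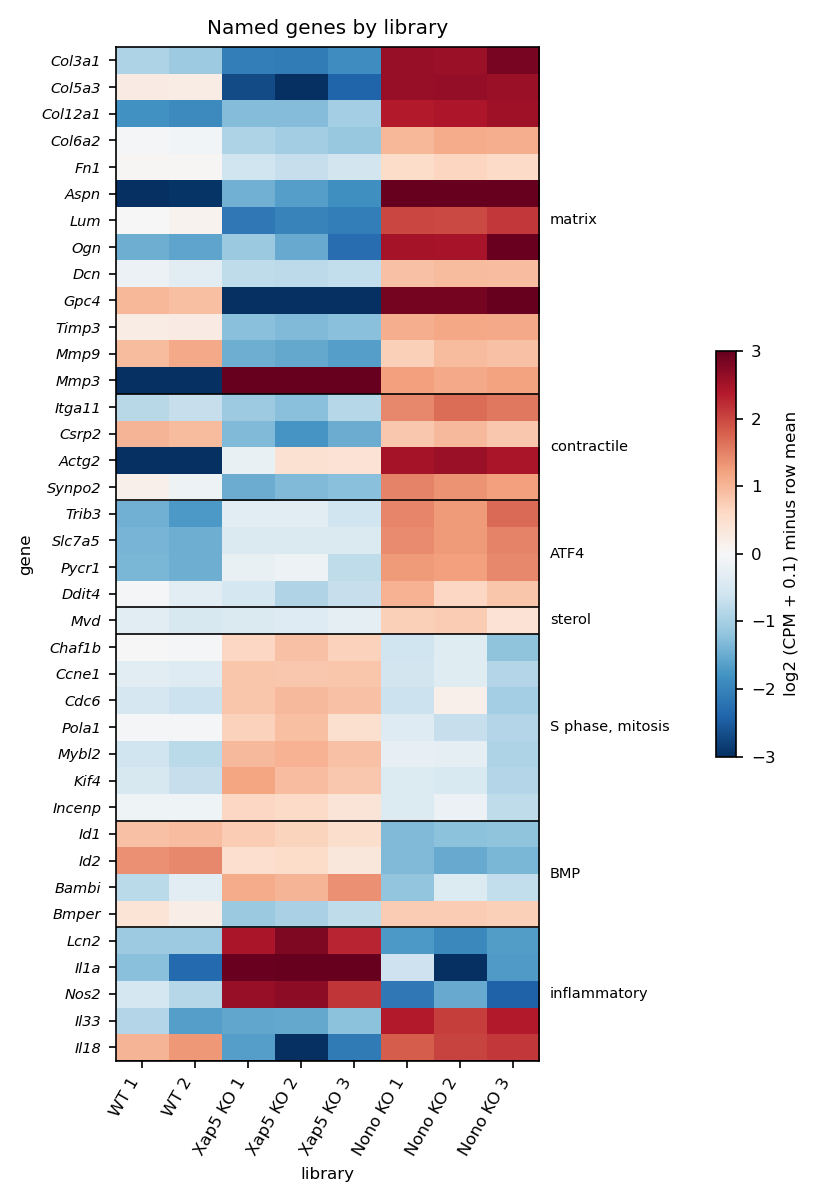
Colour gives the log2 of CPM plus 0.1 minus the row mean (scale from -3 to 3) for genes named in the text (rows, grouped as marked on the right) in the wild-type, Xap5 KO and Nono KO libraries (columns). Between the knockouts, matrix, contractile and ATF4 genes and Mvd are redder in the 3 Nono KO columns and the S-phase and mitosis genes in the 3 Xap5 KO columns. Mmp3 is the matrix gene that goes the other way. Mmp9 and Csrp2 are about as red in wild type as in Nono KO. Id1 and Id2 are blue in Nono KO and reddest in wild type.

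DNA replication genes were higher in Xap5 KO almost throughout. Their products license origins, unwind the helix and copy the genome, and resting fibroblasts keep them low. Of 50 tested, 41 were higher in Xap5 KO and 0 lower at an adjusted p under 0.05 in edgeR, against 27.1% higher among all genes, with a median log2 fold change of 0.69; DESeq2 also called 0 lower, and 0 members were lower at an unadjusted p under 0.05 in edgeR. Without Nono KO replicate 2 the counts were 43 higher and 1 lower, Rfc4, a subunit of the clamp loader named after its values were seen (log2 fold change -0.46, edgeR adjusted p = 0.0452). Ccne1, the G1/S cyclin E1, stood at 32.3, 31.5 and 32.4 CPM in Xap5 KO and 12.3, 14.1 and 9.804 CPM in Nono KO, with 14.5 and 13.7 CPM in wild type. The log2 fold change of Ccne1 was 1.41 (SE 0.111) (edgeR adjusted p = 9.78e-10). Chaf1b, a chaperone that loads histones onto new DNA, stood at 28.3, 33.7 and 29.5 CPM against 12.1, 14.3 and 7.93 CPM. Cdc6, which loads the replicative helicase, stood at 20.4, 22.5 and 21.02 CPM against 7.25, 12.7 and 5.55 CPM, and Pola1, the polymerase subunit that makes the primers, at 54.6, 63.1 and 47.04 CPM against 25.6, 20.8 and 18.3 CPM. Nono KO replicate 3 was the lowest library for each of these 4 genes. Without it 37 members of the list were higher and 0 lower. The log2 fold changes of Chaf1b, Cdc6 and Pola1 were 1.41, 1.32 and 1.35.

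Promoters of replication genes often hold a site of the E2F factors that switch them on in S phase. The letters TTTNNCGC, read on both strands, occurred in the promoter of 18 of the 38 tested members found in the RefSeq promoter table of GRCm38.p6 (47.4%), against 5.93% of all 27025 genes in it, with promoters of 250 bases before to 50 after the start. Among matched members they occurred in 14 of 31 that were higher in Xap5 KO and in 4 of 7 that were not called. The 250 bases before the start of the named members with a match are shown so that the letters can be seen in place, 5′ to 3′ on the gene's strand with the match in capitals.
Cdc6, chr11:98907901-98908150, plus strand: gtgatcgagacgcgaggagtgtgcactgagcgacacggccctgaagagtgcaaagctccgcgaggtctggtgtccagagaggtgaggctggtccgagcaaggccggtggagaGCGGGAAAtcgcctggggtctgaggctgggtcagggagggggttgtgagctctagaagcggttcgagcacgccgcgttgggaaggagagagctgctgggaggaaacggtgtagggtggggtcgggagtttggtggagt
Pola1, chrX:93632156-93632405, minus strand: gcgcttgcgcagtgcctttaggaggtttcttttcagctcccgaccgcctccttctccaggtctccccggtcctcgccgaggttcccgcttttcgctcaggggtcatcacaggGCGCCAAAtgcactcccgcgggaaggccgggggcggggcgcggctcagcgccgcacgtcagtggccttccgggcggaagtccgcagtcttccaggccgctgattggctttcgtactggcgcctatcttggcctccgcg
Both matches start 138 bases before the transcription start and read on the opposite strand. Chaf1b and Ccne1 had no match to these letters in their windows. A match describes letters and does not show that a factor binds.

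Mitotic genes leaned the same way. Of 68 tested, 35 were higher in Xap5 KO and 3 lower, with a median of 0.37; without Nono KO replicate 3 the median was 0.23, with 28 higher. Mybl2, the B-Myb factor of the late cell cycle, stood at 20.2, 21.3 and 18.98 CPM against 8.69, 8.52 and 5.39 CPM, and Incenp, of the chromosomal passenger complex, at 58.1, 56.01 and 48.9 CPM against 28.3, 33.5 and 22.04 CPM. The kinetochore gene Cenpi stood at 18.8, 21.6 and 18.5 CPM against 6.47, 6.75 and 4.39 CPM and the chromosome motor Kif4 at 42.6, 35.4 and 32.6 CPM against 14.04, 13.7 and 10.1 CPM. Wild type was near Nono KO for Mybl2 (6.77 and 5.83 CPM) and Kif4 (13.4 and 11.6 CPM). Cenpi, Kif4 and Pola1 lie on the X chromosome, whose genes were higher as a whole; with each chromosome's median taken off, 44 replication genes were higher and 0 lower, and 35 mitotic genes were higher and 2 lower. The proliferation marker Mki67 and Top2a, chosen after values were seen, had means of 146 and 209 CPM in Xap5 KO against 89.3 and 151 CPM in Nono KO.

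Among cell-cycle regulators and p53 targets more were lower than higher. Of 43 tested D cyclins, inhibitors of cyclin-dependent kinases and p53 targets, 18 were lower in Xap5 KO and 7 higher, with a median of -0.10; scaled by library totals the median was 0.01, with 17 lower and 13 higher, and without Xap5 KO replicate 1 it was -0.18. Cyclin D2 (Ccnd2) stood at 159.9, 161 and 156 CPM against 405, 409 and 429.7 CPM and cyclin D1 (Ccnd1) at 189, 202 and 158 CPM against 372, 363 and 299 CPM, with log2 fold changes of -1.39 (SE 0.0551) and -0.91 (SE 0.0952). Btg2, an antiproliferative p53 target, was at 14.4, 17.5 and 16.1 CPM against 41.04, 34.7 and 38.5 CPM. Eda2r, a receptor induced by p53, was higher in Xap5 KO, at 39.5, 38.9 and 35.3 CPM against 21.3, 18.02 and 19.4 CPM. The inhibitor p21 (Cdkn1a) and the p53 ligase Mdm2, chosen after values were seen, were lower in Xap5 KO, with log2 fold changes of -0.35 and -0.84.

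Genes of the ATF4 and unfolded protein response were lower in Xap5 KO than in Nono KO in 40 of 52 tested and higher in 2, with a median of -0.36. ATF4 is the transcription factor that cells make when amino acids run short or the endoplasmic reticulum is loaded; it drives amino acid uptake and synthesis. Trib3, a pseudokinase that feeds back on ATF4, stood at 13.1, 13.3 and 10.8 CPM in Xap5 KO and 45.6, 40.4 and 53.6 CPM in Nono KO, with 6.004 and 4.97 CPM in wild type. The amino acid transporter Slc7a5 stood at 34.3, 33.9 and 34.4 CPM against 123, 111 and 131 CPM, with 17.4 and 16.6 CPM in wild type. Pycr1, of proline synthesis, stood at 12.2, 12.7 and 8.37 CPM against 34.5, 33.8 and 39.1 CPM, with 5.43 and 5.08 CPM in wild type. Of these 3 groups wild type was the lowest and Nono KO the highest for each gene, without overlap, which the naming rule set for the knockouts. Their log2 fold changes were -1.90 (SE 0.126), -1.83 (SE 0.0695) and -1.68 (SE 0.139) (edgeR adjusted p = 6.66e-11, 1.09e-14 and 2.01e-09). Ddit4, an inhibitor of mTOR, was at 9.88, 7.59 and 8.81 CPM against 29.3, 21.9 and 25.4 CPM and at 13.6 and 11.3 CPM in wild type. Atf4 itself and the asparagine synthetase gene Asns, chosen after values were seen, were lower in Xap5 KO, with log2 fold changes of -0.67 and -0.91. The chaperone Hspa5 (BiP), a target of the endoplasmic reticulum arm, differed less, at means of 1071 and 1270.3 CPM and a log2 fold change of -0.25 (SE 0.0559).

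The arms of this response are read through different promoter letters. TGATGNAA, the core of the composite element for ATF4 and C/EBP, occurred in 9 of the 46 members found in the promoter table (19.6%) against 4.51% of all genes there, and in 8 of the 36 that were lower in Xap5 KO. The endoplasmic reticulum stress element, CCAAT and CCACG with 9 free bases between them, occurred in 8 of the 46 (17.4%) against 0.137% of all genes, and in 7 of the 36 that were lower. Both strands were read, and 1 member per element was not called. The 250 bases before the start of Pycr1 and Hspa5 are printed as an example of each, with the match in capitals; Hspa5 was chosen after values were seen.
Pycr1, chr11:120643749-120643998, minus strand: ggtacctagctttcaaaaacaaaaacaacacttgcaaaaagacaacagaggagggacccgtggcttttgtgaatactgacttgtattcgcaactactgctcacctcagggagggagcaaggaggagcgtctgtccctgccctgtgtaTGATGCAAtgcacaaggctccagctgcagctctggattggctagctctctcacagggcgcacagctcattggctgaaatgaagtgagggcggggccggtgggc
Hspa5, chr2:34771840-34772089, plus strand: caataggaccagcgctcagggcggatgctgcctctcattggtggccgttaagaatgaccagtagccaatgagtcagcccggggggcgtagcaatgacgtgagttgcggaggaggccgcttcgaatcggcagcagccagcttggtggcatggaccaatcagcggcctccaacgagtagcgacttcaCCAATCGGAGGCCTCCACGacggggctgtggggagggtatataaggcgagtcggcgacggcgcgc
The Pycr1 match starts 103 bases and the Hspa5 match 65 bases before the start, each on the gene's strand. Ddit4 had no match to TGATGNAA in its window.

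In the sterol and fatty acid list and in the glycolysis and hypoxia list more genes were lower than higher in Xap5 KO. Of 45 sterol and fatty acid genes 25 were lower in Xap5 KO and 11 higher, with a median of -0.30. Mvd, an enzyme of the mevalonate pathway, stood at 28.2, 29.3 and 31.02 CPM in Xap5 KO against 62.6, 64.4 and 51.5 CPM in Nono KO, a log2 fold change of -1.01 (SE 0.0855). Wild type was nearer to Xap5 KO for Mvd, at 30.8 and 27.5 CPM. The cholesterol exporter Abca1 and the acetyl-CoA carboxylase Acacb were higher in Xap5 KO, by 1.04 and 1.02 on the log2 scale. Of 44 glycolysis and hypoxia genes 19 were lower and 8 higher, with a median of -0.28; without Xap5 KO replicate 1 the count of higher members was 5. P4ha1, which hydroxylates proline in collagen, had 107, 93.01 and 85.7 CPM in Xap5 KO against 213, 224 and 217 CPM in Nono KO. Plod2, which hydroxylates its lysines, had 17.2, 17.4 and 14.1 CPM against 48.6, 43.1 and 42.97 CPM. Ndrg1, a hypoxia-responsive gene, was lower in Xap5 KO and Pfkfb3, which raises glycolytic flux, higher, at log2 fold changes of -1.41 (SE 0.0736) and 1.81 (SE 0.141).

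Lysosomal and NRF2 antioxidant genes leaned toward Xap5 KO. Of 45 lysosomal genes and MiT/TFE factors 24 were higher and 8 lower, with a median of 0.26. Tfec, a factor of the MiT/TFE family, stood at 25.7, 29.9 and 28.8 CPM in Xap5 KO and 12.2, 11.4 and 11.2 CPM in Nono KO and was listed at 0 in wild type. The glycoprotein Gpnmb stood at 805, 761 and 881 CPM against 338, 332 and 334 CPM, and the X-linked alpha-galactosidase Gla at 148, 146 and 153 CPM against 51.7, 47.5 and 50.8 CPM. Wild type held 161 and 149 CPM of Gpnmb and 179 and 175 CPM of Gla, so that Nono KO alone was low for Gla, and both knockouts lay above wild type for Gpnmb. The collagen-degrading cathepsin Ctsk was lower, at 12.7, 11.2 and 13.7 CPM against 30.4, 31.95 and 37.9 CPM. Of 46 NRF2 genes 20 were higher and 12 lower, with a median of 0.14. On the log2 scale the quinone reductase Nqo1 was higher by 1.03, the X-linked G6pdx by 0.97 and the glutathione transferase Gstp1 by 0.95, while Gstt1 was lower, at a log2 fold change of -1.28. Of the 13 mitochondrially encoded genes 1 was called, mt-Nd1, at 8112, 7023 and 6439 CPM against 5752, 6184 and 5585 CPM, and this call was lost with chromosome medians taken off (edgeR adjusted p = 0.0703). The median taken off there was that of these same 13 genes. Any shift they shared was removed by that step, so the lost call does not bear on it. Without Xap5 KO replicate 3, 4 of the 13 were called higher, and without Nono KO replicate 1, 2 were.

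Chemokines and inflammatory cytokines were called about as often as all genes, 52% against 53%. Of 50 tested, 13 were higher and 13 lower, near the 27.1% and 25.9% of all genes. Their median of -0.07 lay between -0.04 and 0.06 without Xap5 KO replicate 1 or 3 or any 1 of the Nono KO libraries. Interleukin 1 alpha (Il1a) stood at 7.33, 8.398 and 7.81 CPM in Xap5 KO and 0.518, 0 and 0.193 CPM in Nono KO, a log2 fold change of 5.03 (SE 0.607) (edgeR adjusted p = 9.33e-06). The interleukin 1 family members interleukin 33 (Il33), at 0.592, 0.609 and 0.773 CPM against 10.6, 8.55 and 10.5 CPM, and interleukin 18 (Il18), at 0.643, 0 and 0.438 CPM against 8.12, 9.303 and 10.1 CPM, went the other way, at log2 fold changes of -3.90 and -4.67. Il1a and Il33 were both low in wild type, Il1a at 0.298 and 0.0908 CPM and Il33 at 1.02 and 0.545 CPM. The acute-phase gene Saa3 and the prostaglandin synthase Ptgs2 were higher in Xap5 KO and the chemokine Cxcl12 lower, at log2 fold changes of 2.81, 1.23 and -3.16; Ccl2 was not called (log2 fold change -0.17 (SE 0.105), edgeR adjusted p = 0.189), but was without Nono KO replicate 3 (-0.30, 0.0017). These last 4 genes were chosen after values were seen.

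Interferon-stimulated genes were lower in Xap5 KO in 25 of 53 tested and higher in 6, with a median of -0.55. The share called was 58.5%, near the 53% of all genes, of which 25.9% were lower and 27.1% higher. Parp14 stood at 3.58, 4.55 and 3.58 CPM against 15.2, 11.3 and 12.3 CPM and at 9.18 and 13.2 CPM in wild type. Xaf1, a proapoptotic interferon target, stood at 9.11, 7.86 and 5.62 CPM against 18.2, 16.6 and 15.9 CPM, and the interferon-induced Trim30a at 2.29, 2.73 and 3.32 CPM against 5.601, 5.796 and 6.85 CPM. Ifi27l2a was at 0, 0.219 and 0.232 CPM against 5.43, 4.09 and 6.55 CPM. Levels of all 4 were low in both groups, with no Nono KO library above 18.2 CPM. The leukocyte marker Ptprc (CD45), chosen after its values were seen, had means of 0.2104 and 6.66 CPM. The leukocyte markers did not move one way: of 5 tested, 2 were lower (Ptprc and Lyz2), 1 was higher (Cd14) and 2 were not called (Cd68 and Csf1r), with a median of 0.59. That median was 0.31 without Nono KO replicate 1, where none was called higher, and 0.36 without Nono KO replicate 3; 2 were called higher without Nono KO replicate 2. In all, 6 of the 13 leukocyte markers were at or under 3 counts in all 6 libraries, and the part of such cells was not tested.

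More Wnt genes were lower than higher in Xap5 KO. Of 41 Wnt genes 21 were lower in Xap5 KO and 8 higher, with a median of -0.56. The antagonist Dkk2 stood at 0, 0 and 0.1803 CPM against 8.54, 8.09 and 6.24 CPM, with 6.87 and 6.49 CPM in wild type, and the agonist Rspo2 at 1.08, 0.414 and 1.78 CPM against 5.03, 4.82 and 6.601 CPM. The receptors diverged: Fzd4 was lower in Xap5 KO and Fzd3 higher, at log2 fold changes of -1.998 and 2.06. In the BMP and TGF-beta list 18 of 44 were lower and 14 higher, with a median of -0.03 (-0.06 without Xap5 KO replicate 1 or Nono KO replicate 2 and -0.05 without Nono KO replicate 1), and 8 of the higher genes were so at least 2-fold. Id1 and Id2, direct targets of BMP signalling that hold back differentiation, were both higher in Xap5 KO. Id1 stood at 56.2, 53.2 and 47.7 CPM in Xap5 KO against 13.3, 13.98 and 14.2 CPM in Nono KO, and Id2 at 27.3, 28.04 and 24.2 CPM against 7.55, 6.62 and 7.29 CPM. Wild type was at 61.1 and 63.3 CPM for Id1 and 49.5 and 51.8 CPM for Id2, so Nono KO lay below both for Id1, and both knockouts lay below wild type for Id2. The pseudoreceptor Bambi was higher in Xap5 KO, at 15.7, 14.6 and 18.8 CPM against 3.13, 5.36 and 4.25 CPM, and the extracellular BMP regulator Bmper lower, at 26.6, 29.3 and 33.8 CPM against 97.9, 97.2 and 94.6 CPM. The log2 fold changes of Id1, Id2, Bambi and Bmper were 1.92 (SE 0.0817), 1.89 (SE 0.103), 1.95 (SE 0.195) and -1.69 (SE 0.0823).

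Growth factor genes were higher in Xap5 KO in 16 of 36 tested and lower in 10, with a median of 0.24. Insulin-like growth factor 1 (Igf1) stood at 28.4, 25.7 and 32.4 CPM against 8.14, 10.9 and 9.61 CPM and its binding protein Igfbp5 at 6.05, 3.19 and 6.41 CPM against 0.148, 0.195 and 0.249 CPM. The lymphatic growth factors diverged, Vegfc at 17.7, 19.1 and 16.1 CPM against 2.34, 1.24 and 1.52 CPM and Vegfd at 36.98, 34.7 and 26.8 CPM against 99.00, 103 and 111 CPM. The log2 fold changes of Vegfc and the X-linked Vegfd were 3.37 (SE 0.171) and -1.67 (SE 0.0962). Of 25 Notch genes 7 were higher and 5 lower, 48% called against 53% of all genes. Their median of 0.12 was -0.0068 without Xap5 KO replicate 1, 0.02 without Xap5 KO replicate 3, 0.02 without Nono KO replicate 1 and 0.07 without Nono KO replicate 2. The ligand Jag1 stood at 9.01, 10.8 and 11.03 CPM against 53.5, 49.95 and 66.7 CPM, with 9.18 and 9.49 CPM in wild type, a log2 fold change of -2.46 (SE 0.1196).

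**Figure D4:**
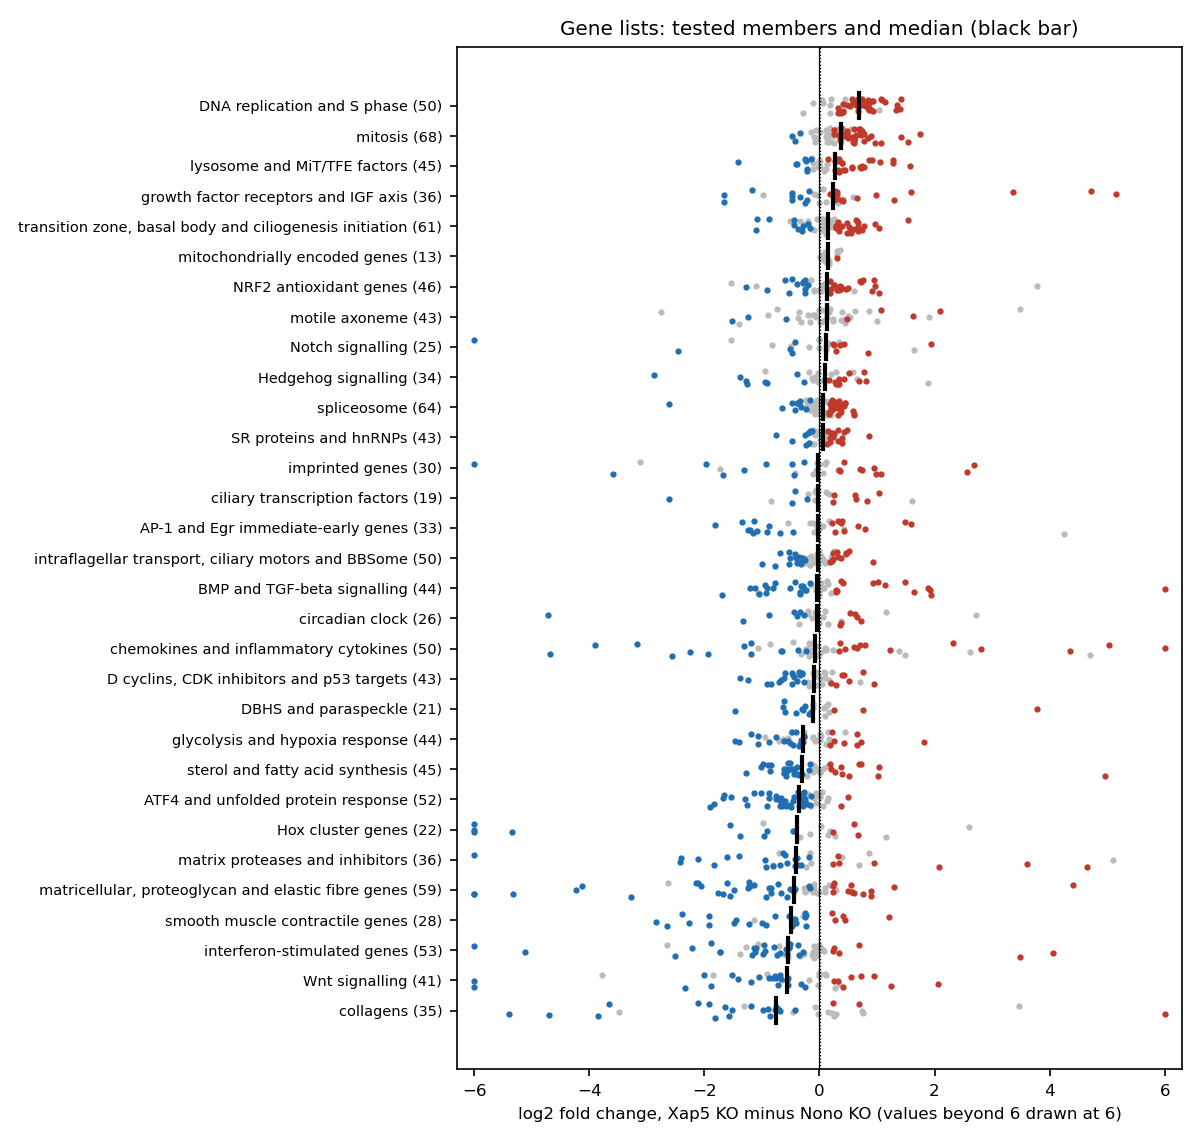
Log2 fold change, Xap5 KO minus Nono KO (x axis), of the tested members of each pathway list (rows, with the number tested), red where called higher in Xap5 KO, blue where called lower and grey where not called; black bars are list medians and values beyond 6 are drawn at 6. The medians run from -0.75 for collagens to 0.69 for DNA replication.

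Core RNA-processing genes were called about as often as all genes. Of 64 spliceosome genes 23 were higher in Xap5 KO and 10 lower, a share called of 51.6% against 53% of all genes, with a median of 0.07. This balance was not stable: 15 were higher without Nono KO replicate 3, with a median of 0.04, and 14 were higher and 12 lower with chromosome medians taken off. Apart from Fam50a itself the changes were within 2-fold. The U2 component Sf3b3 stood at 226.8, 237 and 240.4 CPM against 367, 373 and 363 CPM, and Prpf31, of the tri-snRNP, at 59.1, 53.2 and 43.7 CPM against 36.9, 33.6 and 32.5 CPM. Their directions were opposite, with log2 fold changes of -0.65 (SE 0.0492) and 0.60 (SE 0.0942). Of 43 SR proteins and hnRNPs 15 were higher and 8 lower, with a median of 0.05 that fell below 0 with chromosome medians taken off (-0.01); without Xap5 KO replicate 3 the count of lower members was 14 and the median 0.02, and without Nono KO replicate 1 the median was 0.10. The muscleblind splicing factors Mbnl1 and Mbnl2 were lower in Xap5 KO and Srsf9 higher, at log2 fold changes of -0.48, -0.76 and 0.48. Hnrnph2 and Rbmx, both X-linked, were higher by 0.87 and 0.75, and neither was called once the X median was taken off (edgeR adjusted p = 0.0914 and 0.913).

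Among 21 DBHS and paraspeckle genes 10 were lower in Xap5 KO and 3 higher, with a median of -0.11; scaled by library totals, 8 were higher and 6 lower, and without Xap5 KO replicate 3 the median was -0.17. Nono itself is 1 of the 3 higher. Taf15, an RNA-binding protein found in paraspeckles, stood at 89.02, 81.7 and 76.7 CPM against 133, 135 and 117 CPM, a log2 fold change of -0.64 (SE 0.153). The paraspeckle RNA Neat1 was not analysed here.

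The 4 ciliary lists had 16.3% to 55.7% of their tested members called, against 53% of all genes. Of 50 genes for intraflagellar transport, ciliary motors and the BBSome 15 were lower in Xap5 KO and 11 higher, a median of -0.03 that was 0.08 when scaled by library totals; without Xap5 KO replicate 1 the count of higher members was 7. Leaving out each library in turn gave medians of -0.08 (Xap5 KO replicate 1) to -0.02 (Nono KO replicate 2), with -0.05, -0.05 and -0.07 without Xap5 KO replicates 2 and 3 and Nono KO replicate 3. The retrograde motor subunit Dync2h1 stood at 36.6, 39.5 and 39.2 CPM against 61.6, 63.5 and 60.3 CPM, and Ift20, which links the Golgi to the transport complex, at 19.8, 17.8 and 21.6 CPM against 32.3, 31.5 and 37.9 CPM. Ift22 went the other way, at 31.5, 29.5 and 28.4 CPM against 15.3, 15.4 and 16.5 CPM. The log2 fold changes of Dync2h1, Ift20 and Ift22 were -0.68 (SE 0.0817), -0.78 (SE 0.0959) and 0.92 (SE 0.0990), and that of the transport gene Hspb11 (Ift25) was -1.01 (SE 0.167). Arl13b and Ift88, chosen after values were seen, were not called, with log2 fold changes of 0.001 (SE 0.0872) and -0.20 (SE 0.129) (edgeR adjusted p = 0.996 and 0.193).

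At the ciliary base more genes were higher than lower in Xap5 KO. Of 61 transition zone, basal body and initiation genes 24 were higher in Xap5 KO and 10 lower, with a median of 0.14; it was 0.08 without Nono KO replicate 1 and 0.22 without Nono KO replicate 2. Cep83, of the distal appendages that dock the centriole to the membrane, stood at 29.4, 29.6 and 30.9 CPM in Xap5 KO against 63.8, 66.4 and 63.3 CPM in Nono KO, and Ahi1, of the transition zone, at 20.7, 21.01 and 18.9 CPM against 45.1, 42.1 and 41.5 CPM. Wild type was near Xap5 KO for Cep83, at 35.7 and 33.3 CPM, and between the knockouts for Ahi1, at 32.9 and 28.8 CPM. Rpgr, an X-linked regulator of the transition zone, stood at 9.39, 8.62 and 9.61 CPM against 2.89, 2.22 and 4.45 CPM, and Kif24, a kinesin that restrains cilium assembly in cycling cells, at 8.31, 7.91 and 7.06 CPM against 4.07, 4.87 and 2.43 CPM. The log2 fold changes of Cep83, Ahi1, Rpgr and Kif24 were -1.11 (SE 0.0721), -1.09 (SE 0.0871), 1.54 (SE 0.206) and 1.03 (SE 0.229); exons of Srpx overlap Rpgr.

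Motile axoneme genes were mostly low and uncalled. The table lists 75 of them, and 43 passed the filter on low counts; of these 4 were higher in Xap5 KO and 3 lower. Without Xap5 KO replicate 1, and likewise without Nono KO replicate 3, 2 were higher. Cfap100 stood at 4.298, 4.48 and 4.97 CPM against 14.6, 13.2 and 11.5 CPM. Cfap69 was higher in Xap5 KO, at 17.7, 21.6 and 19.4 CPM against 8.81, 8.33 and 10.7 CPM. The call for Cfap300 (log2 fold change -0.58 (SE 0.175)) was lost without Nono KO replicate 1 (edgeR adjusted p = 0.0516) and with chromosome medians taken off (0.134). Among 19 tested ciliary transcription factors 6 were higher and 4 lower, counting the knocked-out Fam50a among the lower and Sox5 among the higher, with Gmnn, the replication and multiciliation inhibitor geminin, higher by 1.03 and the RFX partner Rfxap by 0.64 on the log2 scale. The master factor of motile cilia Foxj1, looked up after values were seen, was at a mean of 0.395 and 0.125 CPM and was not called (log2 fold change 1.62 (SE 1.09), edgeR adjusted p = 0.216).

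The Hedgehog co-receptors Cdon, Boc and Gas1 were lower in Xap5 KO than in Nono KO. Cdon stood at 86.3, 85.7 and 86.2 CPM against 213, 199 and 214 CPM, Boc at 7.49, 5.96 and 4.79 CPM against 13.4, 14.5 and 15.9 CPM and Gas1 at 589.8, 573 and 554 CPM against 1043, 1064 and 1188 CPM; all 3 bind Hedgehog ligands at the cell surface. Their log2 fold changes were -1.28 (SE 0.0560), -1.26 (SE 0.183) and -0.94 (SE 0.0584). Wild type lay nearer Xap5 KO for Cdon (73.9 and 67.2 CPM) and nearer Nono KO for Gas1 (949 and 933 CPM). In the pathway list as a whole 11 of 34 were higher and 8 lower, 4 of the lower at least 2-fold, with a median of 0.10 (0.04 without Xap5 KO replicate 3). That was 55.9% called, near the 53% of all genes. Of all genes 27.1% were higher and 25.9% lower. The receptor and target Ptch1, chosen after its values were seen, was higher in Xap5 KO, with means of 25.4 and 18.99 CPM and a log2 fold change of 0.42 (SE 0.0995); this call was lost with chromosome medians taken off (edgeR adjusted p = 0.155). The target Gli1, also chosen after its values were seen, went the other way, at 0, 0.0974 and 0.258 CPM in Xap5 KO and 1.41, 0.511 and 0.746 CPM in Nono KO, with 0.198 and 0 CPM in wild type. Its groups did not overlap, and the log2 fold change was -2.88 (SE 1.17) (edgeR adjusted p = 0.0425). The call for Gli1 was lost, with its direction kept, without Xap5 KO replicate 1 (0.105) or 2 (0.102) and without Nono KO replicate 1 (0.136) or 3 (0.054). It was lost too with library totals (0.0524), no expression filter (0.0583), a replicate block (0.0735) and chromosome offsets (0.0775).

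Circadian genes were called about as often as all genes, 50% against 53%. Of 26 tested, 6 were higher in Xap5 KO and 7 lower, where 27.1% and 25.9% of all genes were. Their median was -0.03. Leaving out each library in turn gave medians of -0.08 (Nono KO replicate 1) to 0.03 (Nono KO replicate 3). The median was -0.07 without Xap5 KO replicate 2, -0.05 without Xap5 KO replicate 3 and -0.01 without Nono KO replicate 2. Clock, the activator of the core loop, stood at 86.00, 85.6 and 82.8 CPM in Xap5 KO against 53.3, 52.6 and 48.9 CPM in Nono KO and 79.8 and 81.1 CPM in wild type, a log2 fold change of 0.72 (SE 0.0660). The repressor Nr1d1 stood at 50.9, 37.2 and 40.8 CPM against 25.3, 29.5 and 27.1 CPM, and exons of Thra overlap it on the other strand. The output genes Usp2 and Hlf were lower, at log2 fold changes of -1.34 and -0.88. Per2 and Cry1, chosen after values were seen, were not called, with log2 fold changes of -0.004 (SE 0.153) and -0.08 (SE 0.104) (edgeR adjusted p = 0.989 and 0.53); with chromosome medians taken off Cry1 was called higher, at 0.26 (0.0478). All libraries were taken after 24 h without serum, so phase was not followed.

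Hox and imprinted genes were called in both directions, 59.1% and 63.3% of those tested against 53% of all genes. Of 22 tested Hox genes 10 were lower in Xap5 KO and 3 higher, with a median of -0.38; without Xap5 KO replicate 3, 1 was higher, and with a mean of at least 1 CPM required, 6 were lower. The neighbours Hoxc4, Hoxc5 and Hoxc6 were lower, at log2 fold changes of -1.55, -0.97 and -1.38. Hoxb3 and Hoxb6, chosen after values were seen, were at or under 3 counts in each Xap5 KO library. In Nono KO Hoxb3 was at 2.02, 1.096 and 2.02 CPM and Hoxb6 at 1.48, 2.61 and 0.939 CPM, at least 22.6-fold and 22.1-fold higher. Of 30 imprinted genes 10 were higher and 9 lower, against 27.1% and 25.9% of all genes, with a median of -0.03 (-0.05 without Xap5 KO replicate 1, -0.0081 without Nono KO replicate 2 and -0.04 without Nono KO replicate 3). The paternally expressed zinc finger gene Peg3 stood at 276, 264 and 226.8 CPM against 38.9, 42.9 and 36.9 CPM, with 105 and 95.3 CPM in wild type, a log2 fold change of 2.69 (SE 0.0789). Grb10, an adaptor that dampens insulin signalling, stood at 350.1, 331 and 325 CPM against 800.2, 848 and 838 CPM. Snrpn was higher by 0.98, but shares exons with Snurf. Among 33 immediate-early genes 10 were higher and 11 lower, with Klf2 and Arc lower and Ier3 higher, at log2 fold changes of -1.81, -1.35 and 1.58.

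Differences were not spread evenly over the genome. Of 438 tested genes on the X chromosome, which carries both Fam50a and Nono, 319 (72.8%) were higher in Xap5 KO and 27 (6.16%) lower, with a median log2 fold change of 0.73. Outside the X chromosome 25.5% of 12894 genes were higher and 26.6% lower, with a median of -0.0015. Set against wild type, the median over X-linked genes was 0.33, 0.36 and 0.33 in the 3 Xap5 KO libraries and -0.30, -0.35 and -0.32 in the 3 Nono KO libraries, and 0.11 to 0.13 in Sox5 KO. Chromosome 10 was the lowest autosome, at -0.34, with 359 of 643 genes lower and 53 higher, and chromosome 5 the highest, at 0.26, with 401 of 829 higher and 89 lower. Along both the X and chromosome 10 the shift was even: in 4 equal bins by gene order the medians were 0.80, 0.67, 0.75 and 0.72 for X, and -0.36, -0.31, -0.34 and -0.36 for 10. With each chromosome's median taken off, 6235 genes were called and 5192 of the 7071 calls were kept in direction; Fam50a was then at -3.35 and Nono at 3.04. The part of chromosome copy number in these shifts was not tested.

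**Figure D5:**
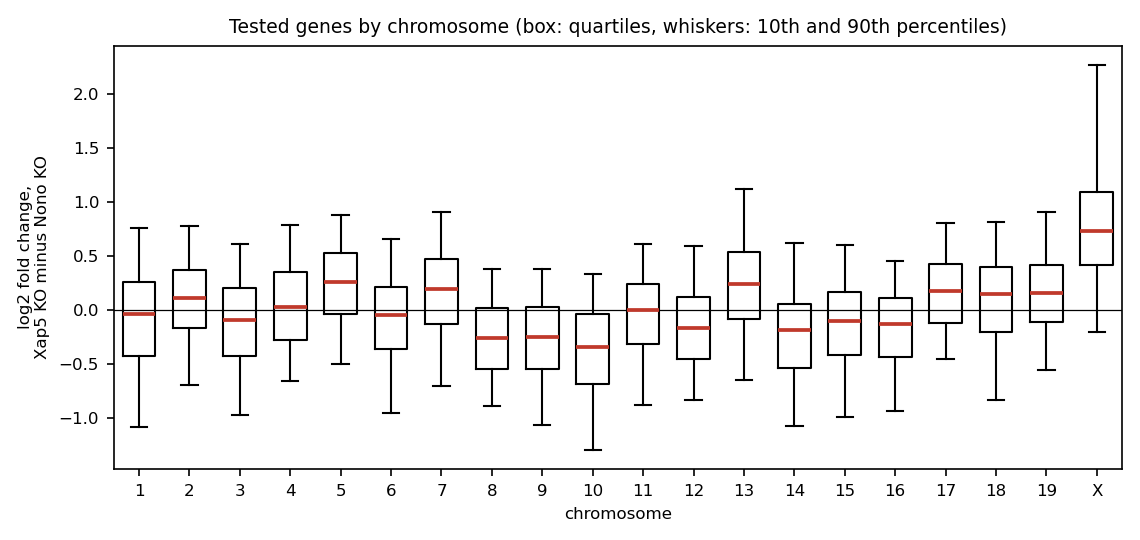
Log2 fold change, Xap5 KO minus Nono KO (y axis), of tested genes on each chromosome (x axis); red lines are medians, boxes the quartiles and whiskers the 10th and 90th percentiles. The X median is 0.73, and the autosome medians lie between -0.34 (chromosome 10) and 0.26 (chromosome 5).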

How the data were processed

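RNA selection and strand handling are not given in the sources used here; libraries were made from total RNA with a NEBNext Ultra II kit, per the labels' protocols. Per the submitters' processing notes, the tools were HISAT2 2.1.0, StringTie 1.3.3b and DESeq2 1.12.4 and the builds GRCm39 and mm39. The authors deposited 1 table of estimated counts, whole numbers for 21684 genes and 11 libraries, with 0 further sample columns; the value 1 occurs 857 times and 2 occurs 3302 times, and how read pairs were counted is not given in the sources used here. Values were rounded to whole numbers, which changed none. Genes were matched by ID to GENCODE M21 on GRCm38, another build, used only for chromosome names, gene order and exon overlap (13302 of 13332 tested genes matched). Promoter sequences come from RefSeq on GRCm38.p6.

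Genes passed edgeR's filter at a minimum count of 10. Counts from all 11 libraries were scaled by TMM and fitted by genotype with edgeR 4.0.16 (robust quasi-likelihood, R 4.3.3), so that the 4 groups share 1 estimate of spread; the contrast was Xap5 KO minus Nono KO, and p-values were adjusted over 13332 genes by Benjamini-Hochberg. CPM are TMM-scaled. The detection limit was set at 3 counts per library; where all 3 libraries of a knockout were at or below it, a bound on the fold was computed against that limit. The procedure was tested on simulated data in which few genes changed and as many rose as fell. It therefore did not test the scaling where much of the transcriptome differs, as here. Total counts of 37153144 to 43498383 in the 6 libraries gave a median standard error of 0.10 on the log2 scale.

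Genes were named by rule: the targets and DBHS family, the 12 largest called changes per direction at a mean of at least 10 CPM without overlap, and the 4 largest per list at a mean of at least 5 CPM without overlap; exceptions are marked in the text, and some genes are not reported here. The comparison and the gene lists were chosen with earlier results of these data known. Alternatives were 6 libraries alone, RLE or no normalization factors, other filters, a replicate block, chromosome offsets, a 2-fold minimum, each replicate left out, and DESeq2 1.42.0.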

Additional observations from a re-analysis of the deposited data

How the results depend on the processing

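The count of 7071 called genes ranged from 6235 (chromosome offsets) to 7345 (library totals) over the planned settings other than a 2-fold minimum. With at least 2-fold required, 1474 genes were called, 699 higher and 775 lower in Xap5 KO. Leaving out 1 library gave 6474 to 6761 called genes, 3194 to 3405 higher and 3172 to 3469 lower. Library totals alone gave 4721 higher and 2624 lower, and 64.3% higher in place of 51.1%. Of the lists, under library totals the counts of lower members went from 10 to 6 for DBHS and paraspeckle genes, 10 to 6 for the spliceosome, 10 to 6 for the transition zone, 8 to 3 for the lysosome and 8 to 3 for SR proteins and hnRNPs. The counts of higher members went from 3 to 8 for DBHS and paraspeckle genes and 15 to 23 for SR proteins and hnRNPs. They went from 4 to 7 for motile axonemes and from 7 to 13 for cell-cycle regulators and p53 targets. For Hox genes they went from 3 to 5, for mitochondrially encoded genes from 1 to 6 and for Notch from 7 to 11. With chromosome offsets they went from 7 to 4 for matrix proteases, 5 to 2 for smooth muscle genes and 11 to 7 for sterol and fatty acid genes. DESeq2 called 3431 higher and 3676 lower. Chromosome offsets gave 3051 higher and 3184 lower, kept 5192 calls and turned 59 to the opposite direction. Of the 140 genes named by rule other than the targets, none changed direction in any setting. Most of them were chosen as called genes without overlap and with large changes in the same libraries. Their kept direction was therefore largely set by that choice. Gm49378, Rbmx, Hnrnph2, Cfap300, mt-Nd1, Lpl, Des and Cd14 lost their call in at least 1 setting. Des lost it without Xap5 KO replicate 1 and Cd14 without Nono KO replicate 1. That of mt-Nd1 was lost where the median of its own list was taken off. Among genes named outside the rule, Lox, Arl13b, Per2 and Cry1, none called in the main fit, changed direction in at least 1 setting. Cry1 was called higher with chromosome offsets, and Gli1, Ptch1 and Pde2a lost their call in at least 1 setting. Fam50a, Nono and Sox5 kept direction and call in all. Replicates share numbers in the labels, but deviations of same-numbered libraries correlated at only 0.0226, 0.0236 and 0.0247, each the best match of its number, so the numbers were not taken as pairs; with a replicate block 6987 genes were called, 3561 higher and 3426 lower. Depth limits genes near 3 counts, for which fitted fold changes are no bounds.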
